A study of Mus musculus with 4 samples.

Results

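Immature type 1 and type 2 conventional dendritic cells (cDC1 and cDC2) of the mouse spleen were compared with each other in RNA and in surface protein. Members were chosen by measured values: the UMIs (unique molecular identifiers, each standing for a captured molecule) of 3 antibodies and of 6 genes. Only barcodes with 500 or more genes, 1000 or more RNA UMIs and under 10% mitochondrial UMIs were kept. Immature meant at most 1 UMI of Ccr7 and none of Fscn1, a pair of genes that rise as dendritic cells mature. Cells with a UMI of the lymphoid or plasmacytoid genes Cd3e, Cd79a, Ncr1 or Siglech were left out. A cDC1 had at least 3 UMIs of the XCR1 antibody and at most 2 of the CD172a antibody. A cDC2 had at least 5 UMIs of CD172a, at most 1 of XCR1, and more of the IA_IE antibody, which binds MHC class II, than the median kept cell (108 UMIs). Of 31790 barcodes, 29752 were kept and 23102 met the RNA conditions for immature cells. The comparison took 14130 of them: 12814 cDC1 (5101 in library 1 and 7713 in library 2) and 1316 cDC2 (730 and 586).

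All cells came from spleens of wild-type (WT) C57BL6 mice in steady state, so both classes share genotype, strain and the absence of treatment. CITE-seq, a single-cell method that reads transcripts together with DNA-tagged antibodies, was done after dendritic cells of 2 mice had been enriched by negative selection and stained with 160 barcoded antibodies and 9 isotype controls. Per the labels, 50000 to 60000 cDC1, 10000 cDC2 and 10000 random live cells were then sorted on CD64, CD11c, MHC class II, XCR1 and CD172a and loaded together. The labels do not say whether the 2 libraries hold separate mice, so every p-value here rests on how far these libraries lie apart, a spread that may be technical. Libraries are numbered by the suffix of their barcodes, and no label ties a suffix to a replicate number.

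Conventional dendritic cells take up antigen in tissues and present it to T cells. The cDC1 lineage depends on the transcription factors IRF8, BATF3 and ID2, takes up dead cells, and presents their antigens on MHC class I to CD8 T cells, while its receptor XCR1 binds a chemokine that such T cells and NK cells release. The cDC2 lineage depends on factors that include IRF4 and ZEB2, primes CD4 T cells through MHC class II, and carries CD172a (SIRPα, encoded by Sirpa), an inhibitory receptor for CD47.

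Each antibody was read through a DNA barcode of 15 bases, taken here from the authors' antibody reference. The 3 barcodes below chose the classes.
XCR1: tccattacccacgtt
CD172a: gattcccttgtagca
IA_IE: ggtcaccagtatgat
The next 4 belong to the antibodies that differed most, 2 on cDC1 and then 2 on cDC2.
CD103: ttcattagcccgctg
CD8a: tacccgtaatagcgt
CD301a: tgtatttactcaccg
CD4: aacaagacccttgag
All 190 barcodes of the reference were distinct.

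The values that chose the cells are a description and were not tested. XCR1 antibody was at 61.7 and 65.8 UMIs per 10000 antibody UMIs in cDC1 of library 1 and 2, and at 3.21 and 4.28 in cDC2. CD172a antibody was at 5.21 and 5.79 in cDC1 and at 186.5 and 159.95 in cDC2. IA_IE was at 1502 and 1277 in cDC1 and at 2684 and 2463 in cDC2, where alone a minimum was set. RNA of the same proteins was split likewise: Xcr1 was at 485 and 564 CPM (UMIs of a gene scaled to one fixed RNA total) in cDC1 against 31.5 and 58.3 in cDC2, and Sirpa at 1.17 and 1.44 CPM against 192 and 183. Cells just inside and just outside the XCR1 threshold (3 against 2 UMIs, 1980 and 1886 cells) had 474 and 413 CPM of Xcr1. For the CD172a threshold (5 against 4 UMIs, 91 and 67 cells) Sirpa was at 174 and 90.02 CPM and Irf8 at 409 and 686.

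The cDC1 cells held more RNA. Their median was 9222 and 8172 RNA UMIs with 2463 and 2316 genes, against 4066 and 4064.5 UMIs with 1532 and 1527 genes in cDC2. Summed over cells, cDC1 gave 48520230 and 66668562 RNA UMIs and cDC2 3300050 and 2726245, so that 3 UMIs, the upper limit that a count of 0 allows over both libraries, correspond to 0.0260 CPM in cDC1 and 0.498 CPM in cDC2. A level in cDC2 is therefore read with less precision than the same level in cDC1. Scrublet marked 0.921% and 2.05% of cDC1 and 3.56% and 3.75% of cDC2 as doublets. Barcodes shared by both libraries numbered 61, and 8 of these were members in both.

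Markers that the rule did not use were split along the class names. All 13 tested cDC1 markers were higher in cDC1 and all 16 tested cDC2 markers higher in cDC2, with median log2 differences (cDC1 minus cDC2) of 3.14 and -5.54. These lists, which include Irf8 and S100a4, were chosen with earlier results of these data known. The split is therefore a description and no independent support for the class names. Irf8, the factor on which cDC1 depend, was at 2052 and 2236 CPM in cDC1 and at 216 and 312 CPM in cDC2. S100a4, a calcium-binding protein of motile cells, was at 7.17 and 9.28 CPM in cDC1 and at 1206 and 1209.7 CPM in cDC2.

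Across the transcriptome many genes were higher in each class, and large differences were more common on the cDC2 side. Of 13363 genes tested, 5508 (41.2%) passed edgeR's quasi-likelihood test at an adjusted p under 0.05: 2768 (20.7%) were higher in cDC1 and 2740 (20.5%) in cDC2. With at least 2-fold asked as well, 1054 (7.89%) were higher in cDC1 and 1454 (10.9%) in cDC2. Among called genes with a mean of at least 20 CPM over both classes, 68 of 1312 on the cDC2 side reached 16-fold, and 1 of 1540 on the cDC1 side did. The largest log2 difference among them was 9.26 in size for cDC2 and 4.11 for cDC1. The 9.26 is that of Gm9733, which had only 2 and 5 UMIs in cDC1. These extremes are not read to the same depth, as a count of 0 allows up to 0.0260 CPM in cDC1 and 0.498 CPM in cDC2. With DESeq2 the calls fell to 3340, of which 1518 were higher in cDC1 and 1822 in cDC2.

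**Figure D1:**
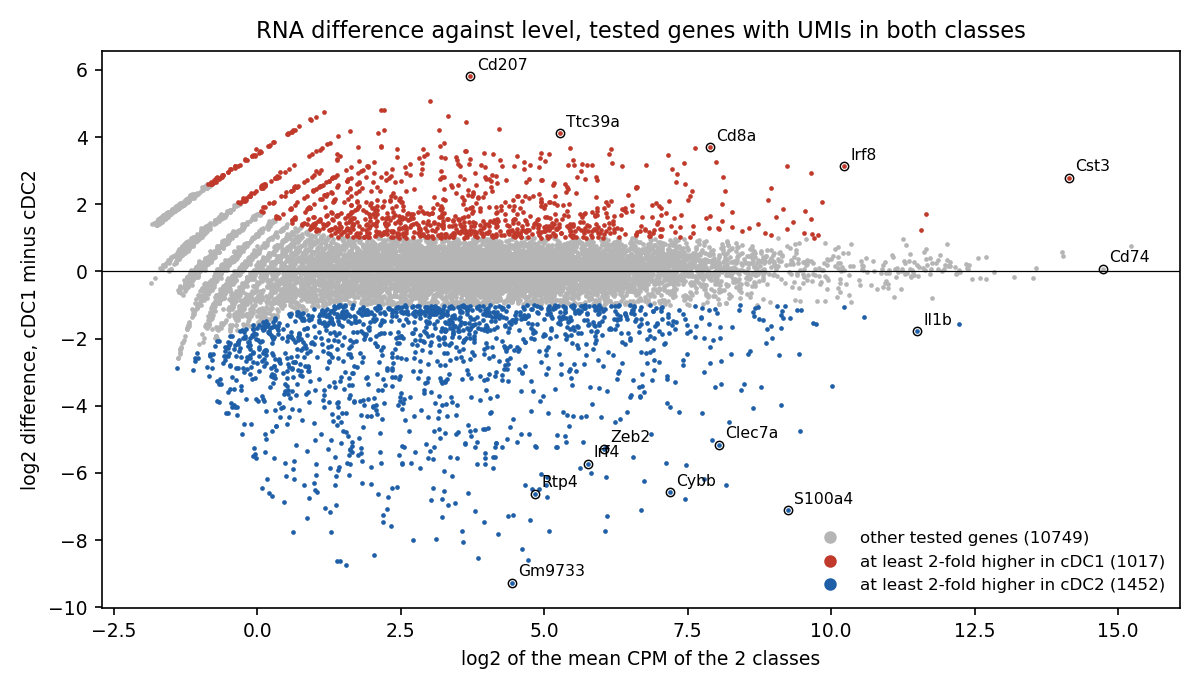
Log2 difference in RNA (cDC1 minus cDC2, y axis) against the log2 of the mean CPM of both classes (x axis) for the 13218 tested genes with UMIs in both classes; red and blue points are genes at least 2-fold higher in cDC1 or cDC2 at an adjusted p under 0.05. Blue points reach -9.26 at a mean of 20 CPM or more, while red points at such levels stop at 4.11. A count of 0 allows up to 0.0260 CPM in cDC1 and 0.498 CPM in cDC2, so blue points can reach further.

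RNA of the leading cDC1 genes was still counted in the cDC2 class. For the 12 leading cDC1 genes named next, cDC2 held 6.37% to 10.7% of the cDC1 level (median 9.42%). T cells of the same libraries (at least 2 UMIs of Cd3e, 273 and 206 cells) held 1.70% to 57.7% of it (median 6.53%). For the 12 leading cDC2 genes, cDC1 held 0.134% to 0.848% of the cDC2 level (median 0.566%), and T cells 0% to 49.6% (median 1.23%). Summed cDC1 marker RNA had a median of 79.4 UMIs per 10000 in cDC1, 7.95 in cDC2 and 4.62 in T cells. In addition 57 of 1316 cDC2 (4.33%) carried as much cDC1 marker RNA as the lowest 1% of cDC1 or more (33.7 per 10000). Without those 57 cells the median log2 difference of the 13 cDC1 markers was 4.07, a rise that their choice by the same markers fixes. The part of free RNA or of doublets in the smaller differences on the cDC1 side was not tested.

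Among called genes with a mean of at least 20 CPM, the 12 with the largest differences on the cDC1 side are described first. Ttc39a was at 70.4 and 75.0 CPM in cDC1 and at 3.03 and 6.24 in cDC2, a log2 difference of 4.11 ± 0.20. Each ± is the SE implied by edgeR's quasi-likelihood test, which leans on the spread pooled over all features. It is not the spread of that gene or antibody alone between the 2 libraries. Cd8a, the CD8 chain that marks splenic cDC1, was at 410.01 and 464 CPM against 29.1 and 43.6 (3.71 ± 0.13). Cadm1, an adhesion molecule that binds CRTAM on T cells, was at 336 and 394 CPM against 27.3 and 34.1 (3.68 ± 0.13). In each of these genes the lowest cDC1 value was far above the highest cDC2 value. Cd36, a scavenger receptor for lipids and dying cells, was at 137 and 119 CPM against 12.4 and 12.1 (3.49 ± 0.16). P2ry14, a receptor for UDP-glucose, was at 254 and 266 CPM against 23.9 and 27.1 (3.45 ± 0.14). The other 7 were Pianp, Gpr141b, Fndc5, Gm36723, P3h2, Serpinf1 and Plpp1, with log2 differences from 3.31 to 3.66. The largest adjusted p of the 12 was 2.26e-55 by edgeR's quasi-likelihood test. Their classes did not overlap, which the choice of the largest differences makes nearly certain.

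The 12 on the cDC2 side followed. Gm9733 was at 0.0412 and 0.0750 CPM in cDC1 and at 48.5 and 38.1 in cDC2, a log2 difference of -9.26 ± 0.33. Sirpb1a, of the SIRP family, was at 0.144 and 0.105 CPM against 53.0 and 51.7 (-8.60 ± 0.28). Clec4a1, a C-type lectin of the DCIR family, was at 0.515 and 0.645 CPM against 131 and 137 (-7.73 ± 0.15). These 3, like Sirpb1c and Clec4a3, belong to families of near-identical genes among which reads may be split, so their single values are uncertain. Cd209a, the lectin also called DC-SIGN, was at 1.71 and 1.11 CPM against 226 and 184 (-7.10 ± 0.14). Dtx1, a gene that Notch signalling switches on, was at 0.742 and 0.885 CPM against 134 and 138 (-7.27 ± 0.15). Ptgs2, the inducible cyclooxygenase that makes prostaglandin precursors, was at 2.78 and 3.15 CPM against 383 and 317 (-6.76 ± 0.13). Pltp, which transfers phospholipids to lipoproteins, was at 0.247 and 0.240 CPM against 33.3 and 48.8 (-7.29 ± 0.28). Gm34680, Tlr7 and S100a4 completed the 12, with a largest adjusted p of 1.26e-139 by the same test. Their classes did not overlap either, again nearly certain from how they were chosen. With 1 residual degree of freedom per gene, such p-values lean on the spread pooled over all genes.

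**Figure D2:**
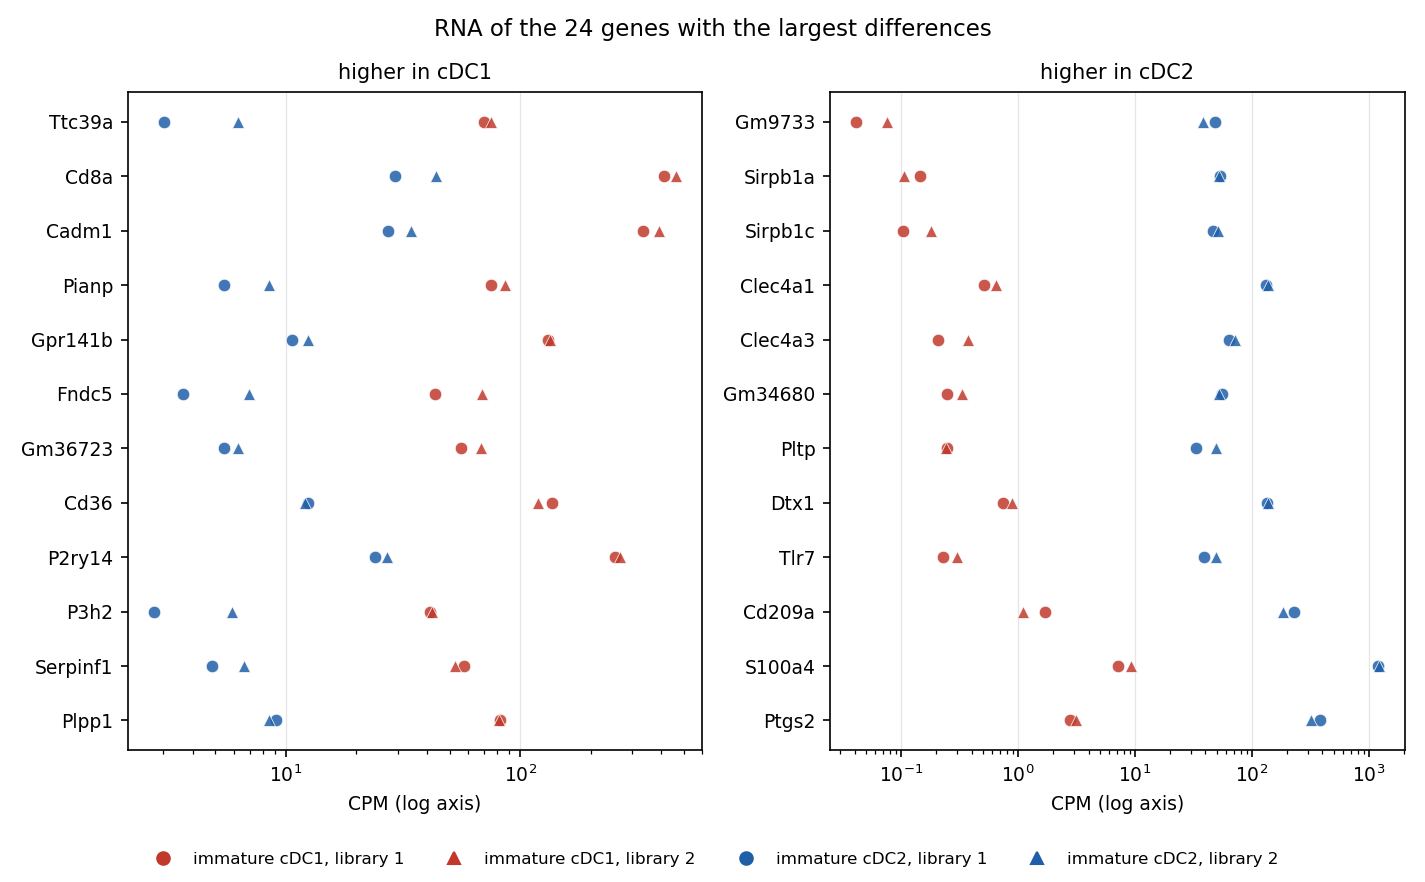
RNA level in CPM (log axis) of the 12 called genes with the largest log2 difference in each direction, among those with a mean of at least 20 CPM. Circles are library 1, triangles library 2, red cDC1 and blue cDC2. Left, blue points of cDC1 genes lie about a decade below the red ones, and right, red points of cDC2 genes lie about 2 decades or more below the blue ones.

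Lineage transcription factors differed in both directions, with more of the listed factors on the cDC2 side. Of 38 tested, 9 were higher in cDC1 (3 by at least 2-fold) and 26 in cDC2 (14), with a median log2 difference of -0.73 against 0.04 for all genes. Over all tested genes, 20.7% were higher in cDC1 (7.89% by at least 2-fold) and 20.5% in cDC2 (10.9%). The counts of every list below stand beside these shares. Id2, an inhibitor of E proteins needed for cDC1, was at 810.2 and 956 CPM in cDC1 and at 221 and 303 in cDC2 (1.86 ± 0.11). Mycl, a MYC family factor of cDC1, was at 130.4 and 128 CPM against 37.9 and 39.98 (1.84 ± 0.13). Batf3, required for cDC1 development, differed less: 283 and 284 CPM against 191 and 175 (0.73 ± 0.10). Irf4 was at 1.57 and 2.13 CPM in cDC1 and at 117 and 96.1 in cDC2 (-5.72 ± 0.14). Zeb2, a repressor that favours cDC2, was at 3.36 and 2.83 CPM against 132 and 124 (-5.27 ± 0.13). Klf4, needed for a subset of cDC2, was at 58.1 and 58.6 CPM against 413 and 416 (-2.73 ± 0.11). Thus Batf3 and Klf4 were readily counted in both classes, while Irf4 and Zeb2 were low in cDC1, though above the limit that a count of 0 allows. Relb, of the noncanonical NF-κB pathway, was at 29.3 and 33.7 CPM against 195 and 225 (-2.64 ± 0.11). Tbx21 (T-bet) was at 0.948 and 1.02 CPM against 11.8 and 20.5 (-3.91 ± 0.31), Bhlhe40 differed by -3.60 ± 0.11 and Prdm1 by -4.01 ± 0.41 on the log2 scale.

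Sensors of microbes were shared out between the classes. Of 21 tested Toll-like receptor genes and their partners, 7 were higher in cDC1 (5 by at least 2-fold) and 9 in cDC2 (6), with a median log2 difference of -0.23. Without cells holding monocyte or macrophage RNA, 8 were higher in each class and the median was -0.0034. Tlr3, a sensor of double-stranded RNA, was at 139 and 151 CPM in cDC1 and at 16.1 and 19.8 in cDC2 (3.12 ± 0.14). Tlr11 and Tlr12, which sense profilin of protozoa, were at 74.2 and 80.6 CPM against 13.9 and 19.1 (2.34 ± 0.15), and at 42.8 and 47.1 CPM against 2.73 and 7.70 (3.27 ± 0.20). Tlr7, a sensor of single-stranded RNA, was at 0.227 and 0.300 CPM in cDC1 and at 39.1 and 48.8 in cDC2 (-7.26 ± 0.27). Tlr1 and Tlr2, which pair to bind lipoproteins, differed by -4.72 ± 0.26 and -1.29 ± 0.14, and Tlr5, the flagellin receptor, by -6.57 ± 0.71 at 4.85 and 3.30 CPM in cDC2. Tlr4, the receptor for bacterial lipopolysaccharide, was at 1.73 and 1.95 CPM against 1.82 and 2.20 and did not pass (-0.02 ± 0.49, adjusted p = 0.977). Unc93b1, which carries the endosomal receptors to their compartment, was at 407 and 414 CPM against 424 and 369 and did not pass the test (0.15 ± 0.10, adjusted p = 0.224 by edgeR's quasi-likelihood test).

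Cytosolic sensors and inflammasome genes were higher in cDC2 wherever they were called: 15 of 19 tested (9 by at least 2-fold), none in cDC1, median log2 difference -0.94. Ddx58, which encodes the RNA sensor RIG-I, was at 0.866 and 0.975 CPM in cDC1 and at 39.1 and 35.9 in cDC2 (-5.24 ± 0.23). Ifih1, which encodes MDA5, was at 9.95 and 11.2 CPM against 44.8 and 47.3 (-2.02 ± 0.14). Nlrp3, the inflammasome scaffold, was at 20.3 and 21.6 CPM against 71.2 and 69.0 (-1.64 ± 0.12). Casp1, its protease, differed by -2.01 ± 0.12, and Nlrc4 by -2.58 ± 0.30. Il1b, the cytokine that caspase-1 cleaves, was high in both classes, at 1264 and 1210.4 CPM in cDC1 and at 5074 and 4030.5 in cDC2 (-1.77 ± 0.10).

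Receptors that read sugars, sialic acids and antibodies were compared list by list. C-type lectins numbered 27, of which 7 were higher in cDC1 (all by at least 2-fold) and 18 in cDC2 (17), with a median log2 difference of -2.73. Clec9a, the receptor for actin exposed on dead cells, was at 289 and 332 CPM in cDC1 and at 27.6 and 45.5 in cDC2 (3.22 ± 0.13). Ly75 (DEC-205), an endocytic receptor, was at 35.1 and 40.9 CPM against 10.9 and 5.87 (2.23 ± 0.18). Cd207 (langerin) had 33.8 and 17.6 CPM in cDC1 and 0 and 1.10 CPM in cDC2, too few UMIs in cDC2 for a fold, and Clec4b2 had 404 and 293 UMIs in cDC1 and 0 in cDC2, at least 12.2-fold higher against 3 UMIs over the class. Clec7a (dectin-1), the β-glucan receptor, was at 12.2 and 14.8 CPM in cDC1 and at 488 and 544 in cDC2 (-5.16 ± 0.12). Clec4a4 (DCIR2), the antigen of the cDC2 antibody 33D1, was at 0.185 and 0.120 CPM against 33.3 and 39.6 (-7.81 ± 0.32). Clec4n (dectin-2) was at 0.474 and 0.885 CPM against 28.8 and 25.7 (-5.22 ± 0.28).

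Siglecs and other immunoglobulin-like receptors were one-sided, with 30 of 35 tested higher in cDC2 (27 by at least 2-fold), 2 higher in cDC1 (1) and a median log2 difference of -3.20. Siglece, an inhibitory receptor for sialic acid, was at 0.144 and 0.180 CPM in cDC1 and at 24.8 and 18.7 in cDC2 (-6.89 ± 0.37). Cd300lb was at 0.0618 and 0.0300 CPM against 9.09 and 9.17 (-7.47 ± 0.53), and Cd33 at 0.144 and 0.150 against 6.06 and 7.70 (-5.42 ± 0.49). Treml4, which binds dying cells, went the other way at 118 and 125 CPM against 33.0 and 49.5 (1.68 ± 0.12). Fc receptor and complement genes gave 13 of 18 higher in cDC2 (11 by at least 2-fold) and 1 in cDC1. Fcer1g, the signalling chain shared by Fc receptors and several lectins, was at 44.4 and 49.0 CPM against 1296 and 1421 (-4.76 ± 0.11). Itgam, the CD11b chain of complement receptor 3, was at 0.742 and 0.645 CPM against 38.8 and 30.8 (-5.53 ± 0.26). Fcgrt, the neonatal Fc receptor, was the single member higher in cDC1 (0.92 ± 0.12). C1qb, a complement gene of macrophages, was at 24.2 and 65.3 CPM in cDC2 but counted in 1.71% and 2.30% of its cells thinned to 2000 UMIs (1.64% and 3.07% unthinned). Cells with monocyte or macrophage RNA were those with a UMI of C1qa, C1qb, Ly6c2, Ace or Adgre4. When they were left out of both classes, the median of the Fc and complement genes went from -3.24 to -0.84. Of the 15 genes then tested, 8 were higher in cDC2. As C1qb is itself a complement gene and fewer genes were tested, part of this shift is fixed by the choice of cells.

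Genes for taking up dying cells did not all lie with cDC1. Of 18 tested, 4 were higher in cDC1 (2 by at least 2-fold, Cd36 and Clec9a) and 10 in cDC2 (10), with a median log2 difference of -1.48. That median was -0.85 without cells holding monocyte or macrophage RNA, -2.86 without the IA_IE minimum and -0.17 for the 10 members with a mean of at least 10 CPM, of which 4 were higher in each class. Tgm2, transglutaminase 2, was at 2.18 and 2.97 CPM in cDC1 and at 221 and 199 in cDC2 (-6.23 ± 0.13). Lrp1, a large scavenging receptor, was at 0.392 and 0.420 CPM against 18.8 and 21.3 (-5.51 ± 0.33), and Axl, a receptor for phosphatidylserine bridged by GAS6, at 0.412 and 0.420 against 2.12 and 8.44 (-3.50 ± 0.47).

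RNA of endosome and lysosome genes differed in both directions. Of 36 lysosomal genes tested, 13 were higher in cDC1 (8 by at least 2-fold) and 19 in cDC2 (13). Cst3 (cystatin C), an inhibitor of cysteine cathepsins, was at 30202 and 32231 CPM in cDC1 and at 4102 and 5693 in cDC2 (2.79 ± 0.11). Naaa, an acid amidase, was at 1069 and 1068 CPM against 111 and 153 (3.14 ± 0.11), and Ppt1, a palmitoyl-protein thioesterase, at 1372 and 1433 against 172 and 223 (2.94 ± 0.11). Lgmn, the asparagine endopeptidase, was at 18.2 and 14.1 CPM against 81.8 and 75.6 (-2.19 ± 0.12). Acp5 and Ctsd, an acid phosphatase and cathepsin D, were also higher in cDC2 (-3.25 ± 0.11 and -1.91 ± 0.13).

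Genes linked to cross-presentation, the loading of engulfed antigen on MHC class I, were split as well: 8 of 29 were higher in cDC1 (4 by at least 2-fold) and 10 in cDC2 (6), with a median of 0.06. The 4 and 6 were 13.8% and 20.7% of this list, against 7.89% and 10.9% of all genes. Wdfy4, which cDC1 need to cross-present, was at 595 and 656 CPM in cDC1 and at 306 and 293 in cDC2 (1.16 ± 0.10). Rab7b and Rab32, small GTPases of late endosomes and lysosome-related organelles, were at 420.2 and 497 CPM against 40.9 and 63.8 (3.25 ± 0.12), and at 138 and 143 against 41.8 and 44.8 (1.804 ± 0.12). Cybb, which encodes the catalytic subunit of the NADPH oxidase that makes phagosomal superoxide, was at 2.60 and 3.06 CPM in cDC1 and at 286 and 295 in cDC2 (-6.58 ± 0.13). Hvcn1, a proton channel that balances the charge of the oxidase, was at 0.742 and 0.825 against 27.3 and 23.8 (-4.91 ± 0.28). Ifi30, the lysosomal thiol reductase, was at 408 and 391 CPM against 1235 and 1249.7 (-1.54 ± 0.10).

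MHC class I genes showed small differences in both directions. Of 23 tested, 13 were higher in cDC1 (2 by at least 2-fold) and 5 in cDC2 (0), with a median log2 difference of 0.43. The 2 were 8.70% of this list, near the 7.89% of all genes. Of genes for peptide supply and loading, Pdia3 was at 622 and 582 CPM against 233 and 251 (1.42 ± 0.10), Calr at 1025 and 978 against 471 and 497 (1.15 ± 0.10), and the peptide pump gene Tap1 at 259 and 315 against 148 and 185 (0.89 ± 0.11). Psmb9 of the immunoproteasome differed by 0.96 ± 0.10. Among the 5 higher in cDC2 were H2-K1, a class I heavy chain, at 1249 and 1552 CPM against 1957 and 2358 (-0.52 ± 0.10) and B2m, the light chain, at 1599 and 1645 against 2422 and 2468 (-0.49 ± 0.10).

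For MHC class II, 2 of 15 genes were higher in cDC1 (0 by at least 2-fold) and 5 in cDC2 (3), and 8 were not called. H2-Aa, H2-Ab1 and H2-Eb1 encode what the IA_IE antibody binds and are given as values: 10575 and 10587, 12317 and 12122, and 8514 and 8514 CPM in cDC1, and 13494 and 12394, 12809 and 11697, and 10767 and 9719 CPM in cDC2. They were among the 13363 genes tested, so a call for any of them would be tied to the IA_IE minimum, set for cDC2 alone. With that minimum in both classes, 2 of 15 were again higher in cDC1 and 5 in cDC2 (4 by at least 2-fold). Cd74, the invariant chain, was at 26704 and 27363 CPM against 28512 and 26280.1 and did not pass (0.08 ± 0.11, adjusted p = 0.582). Peptide exchange differed in its 2 alternative β chains. H2-DMb2 was at 67.5 and 69.8 CPM in cDC1 and at 501 and 441 in cDC2 (-2.68 ± 0.10), whereas H2-DMb1 was at 812 and 837 against 482 and 520.5 (0.82 ± 0.10). H2-Eb2, a nonclassical β chain, was at 4.97 and 6.16 CPM against 129.998 and 114 (-4.35 ± 0.12).

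Receptors that guide cells in the spleen differed clearly. Of 24 homing and chemoattractant receptor genes tested, 5 were higher in cDC1 (5 by at least 2-fold) and 15 in cDC2 (12), with a median log2 difference of -1.27. Gpr183 (EBI2), which binds oxysterols and places cells at the edge of the white pulp, was at 16.2 and 15.4 CPM in cDC1 and at 177 and 194 in cDC2 (-3.45 ± 0.11). Ccr6, the receptor for CCL20, was at 0.165 and 0.180 CPM against 17.3 and 15.8 (-6.44 ± 0.38), and Cx3cr1, the fractalkine receptor, at 0.474 and 0.570 against 17.6 and 17.6 (-4.96 ± 0.33). Ptger3, a receptor for prostaglandin E2, was at 0.556 and 0.510 CPM against 31.5 and 29.7 (-5.73 ± 0.28). Apart from P2ry14, cDC1 had more Cxcr3, the receptor for CXCL9 and CXCL10, at 38.5 and 40.5 CPM against 4.55 and 5.14 (3.13 ± 0.21), and more Ccr9 (2.30 ± 0.23).

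Among the 13 chemokine genes tested, 5 were at least 2-fold higher in cDC1 and 6 in cDC2. Ccl5 and Ccl3, which attract T cells and NK cells, were at 47.3 and 55.0 CPM against 681 and 591 (-3.54 ± 0.11), and at 43.5 and 47.7 against 515 and 478 (-3.35 ± 0.11). Ccl9 was at 0.804 and 1.09 CPM against 31.2 and 38.5 (-5.09 ± 0.24). Cxcl9, a ligand of CXCR3, was at 397 and 524 CPM in cDC1 and at 37.3 and 180.1 in cDC2 (2.41 ± 0.12), so its cDC2 level differed almost 5-fold between libraries. Ccl2 was at 19.1 and 21.4 CPM against 0.606 and 4.40 (3.21 ± 0.28).

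Of 26 cytokine genes tested, 4 were higher in cDC1 (3 by at least 2-fold) and 13 in cDC2 (10), with a median of -0.59. Il12b, a subunit of interleukin 12, was at 25.7 and 31.3 CPM against 6.97 and 3.30 (2.51 ± 0.21), and Il15, which sustains CD8 T cells and NK cells, at 13.8 and 14.4 against 5.15 and 4.03 (1.71 ± 0.26). Ltb, a lymphotoxin chain, was at 13.1 and 14.4 CPM against 483 and 466 (-5.01 ± 0.12). Il1rn, the interleukin 1 receptor antagonist, was at 0.227 and 0.375 CPM against 9.09 and 21.6 (-5.54 ± 0.37), and Vegfa at 0.639 and 0.630 against 26.1 and 21.6 (-5.12 ± 0.30). Cytokine receptors gave 25 of 36 higher in cDC2 (16 by at least 2-fold) and 2 in cDC1 (0). Csf1r, the receptor for macrophage colony-stimulating factor, was at 2.16 and 2.46 CPM against 69.4 and 75.6 (-4.87 ± 0.16). Il1r2, a decoy receptor, was at 3.26 and 3.21 CPM against 154 and 111 (-5.23 ± 0.13), and Il2rg, the common γ chain, at 8.41 and 8.70 against 173 and 158 (-4.17 ± 0.11). Flt3, whose ligand drives both lineages, was one of the 2 on the cDC1 side, at 154 and 149 CPM against 112 and 92.8 (0.67 ± 0.11).

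Adhesion genes were evenly divided, with 17 of 39 higher in cDC1 (10 by at least 2-fold) and 16 in cDC2 (11), median 0.01. Itgae, the CD103 integrin chain, was at 35.3 and 35.2 CPM in cDC1 and at 1.82 and 2.20 in cDC2 (4.24 ± 0.26). Cadm3, a relative of Cadm1, lay on the other side at 0.0412 and 0.150 CPM against 22.4 and 24.9 (-7.73 ± 0.39), as did Esam at 1.61 and 1.83 against 23.3 and 26.4 (-3.75 ± 0.24). Itgb3 was at 0.0412 and 0.195 CPM against 6.36 and 5.50 (-5.46 ± 0.52). In the S100, annexin and galectin list, 10 of 28 were higher in cDC1 (6 by at least 2-fold) and 16 in cDC2 (7). Without the cells rich in neutrophil RNA described below, 14 were higher in cDC2 (5), a fall that their choice by S100a8 and S100a9 partly fixes. S100a6 was at 67.6 and 72.6 CPM against 792 and 825 (-3.43 ± 0.11), while Lgals3 (galectin-3) was at 1063 and 1287 against 371 and 488 (1.56 ± 0.10).

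ESAM-positive cDC2 are known to need Notch2, and the Notch list gave 8 of 24 higher in cDC1 (3 by at least 2-fold) and 9 in cDC2 (5), median 0.05. The 3 and 5 were 12.5% and 20.8% of this list, against 7.89% and 10.9% of all genes. Notch2 itself was at 54.8 and 54.1 CPM in cDC1 and at 64.8 and 59.4 in cDC2 and did not pass (-0.09 ± 0.12, adjusted p = 0.580). Notch4 was at 22.5 and 32.5 CPM against 4.55 and 4.03 (2.75 ± 0.23). Besides Dtx1, the target gene Hes1 was at 30.2 and 25.3 CPM against 64.8 and 56.1 (-1.02 ± 0.12), and the ligand gene Jag1 at 0.247 and 0.210 against 5.76 and 4.40 (-4.34 ± 0.50). Rbpj, the DNA-binding partner of the pathway, was higher in cDC1 at 117 and 133 CPM against 74.8 and 59.8 (0.99 ± 0.12).

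In costimulation and coinhibition, 7 of 23 genes were higher in cDC1 (4 by at least 2-fold) and 11 in cDC2 (7). Cd274 and Pdcd1lg2, the ligands of PD-1, were at 7.13 and 9.70 CPM against 77.3 and 83.6 (-3.17 ± 0.12), and at 0.433 and 0.690 against 17.9 and 15.0 (-4.76 ± 0.33). Cd80 and Cd86, the ligands of CD28 and CTLA-4, differed by -1.27 ± 0.13 and -0.36 ± 0.10. Btla, an inhibitory receptor that binds HVEM, was at 158 and 167 CPM in cDC1 and at 28.5 and 34.1 in cDC2 (2.48 ± 0.13), and Cd24a at 256 and 282 against 41.5 and 50.3 (2.65 ± 0.12).

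Interferon-stimulated genes were higher in cDC2 in steady state. Of 37 tested, 25 were higher in cDC2 (23 by at least 2-fold) and 5 in cDC1 (2), with a median log2 difference of -1.97 against 0.04 for all genes. Rtp4 was at 0.495 and 0.555 CPM in cDC1 and at 67.3 and 47.0 in cDC2 (-6.61 ± 0.22). Ifit3, which binds foreign RNA with its relatives and has a near copy in Ifit3b, was at 0.556 and 0.630 CPM against 36.1 and 25.3 (-5.55 ± 0.27). Rsad2 (viperin) was at 2.14 and 2.58 CPM against 31.5 and 27.5 (-3.54 ± 0.21), and Isg15, a ubiquitin-like modifier, at 43.4 and 45.1 against 344 and 252 (-2.64 ± 0.11). All 4 were lower in cDC2 of library 2 than of library 1 and far above both cDC1 values. Ifitm3, which blocks viral entry, was at 176 and 157 CPM against 1808 and 1979.6 (-3.41 ± 0.11), and Oasl2 at 1.07 and 1.27 against 37.0 and 42.5 (-4.98 ± 0.22). The antiviral GTPase gene Mx1 went the other way, at 26.1 and 31.4 CPM in cDC1 and at 10.3 and 13.6 in cDC2 (1.37 ± 0.17). Genes of the p200 family were split, 2 of 11 higher in cDC1 and 7 in cDC2: Ifi205 was at 199 and 190.4 CPM against 17.0 and 30.8 (3.16 ± 0.14), and Ifi206 at 0.227 and 0.345 against 14.5 and 11.7 (-5.38 ± 0.37). Interferon-inducible GTPase genes were higher in cDC2 in 10 of 15 (8 by at least 2-fold) and in cDC1 in 1.

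The promoters of 3 of these genes are shown because these genes were higher in cDC2 and hold the letters of the interferon-stimulated response element (ISRE). Searched on both strands as GAAA, any 2 bases and GAAA again, the letters were in the 250 bases before the start of 326 of 9442 tested genes with a promoter in the RefSeq table (3.45%, build GRCm38.p6). They were in 70 of 994 genes at least 2-fold higher in cDC2 (7.04%) and in 26 of 743 at least 2-fold higher in cDC1 (3.50%). On the interferon-stimulated list they were in 15 of 30 genes with a promoter (50%), and in 9 of the 19 at least 2-fold higher in cDC2 (47.4%), so the share within the list was close whether or not the gene was higher in cDC2. The stretches hold the 150 bases before the start, 5′ to 3′ on the gene's strand, with matches in capitals. They lie at chr19:34583379-34583528 (plus strand) for Ifit3, chr12:26456453-26456602 (minus) for Rsad2 and chr4:156200819-156200968 (minus) for Isg15.
Ifit3: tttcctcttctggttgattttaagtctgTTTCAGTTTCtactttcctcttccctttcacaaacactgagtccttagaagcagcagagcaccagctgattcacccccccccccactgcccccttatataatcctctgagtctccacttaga
Rsad2: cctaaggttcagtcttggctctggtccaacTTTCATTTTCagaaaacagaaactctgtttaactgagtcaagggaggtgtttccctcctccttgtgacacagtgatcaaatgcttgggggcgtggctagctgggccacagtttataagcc
Isg15: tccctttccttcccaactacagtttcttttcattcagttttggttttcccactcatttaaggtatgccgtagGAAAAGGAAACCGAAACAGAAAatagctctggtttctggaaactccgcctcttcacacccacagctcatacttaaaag
A match describes letters and is not a measured binding site.

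LXR, the receptor in the series title, is activated by oxysterols and switches on cholesterol efflux. Its gene list with cholesterol synthesis and handling gave 10 of 30 higher in cDC1 (3 by at least 2-fold) and 7 in cDC2 (6), median 0.02. The 3 were 10% of this list, near the 7.89% of all genes, and the 6 were 20%, against 10.9%. Nr1h3 (LXRα) was low in both, at 0.350 and 0.585 CPM in cDC1 and at 3.64 and 10.6 in cDC2 (-3.78 ± 0.42). Nr1h2 (LXRβ) was at 55.6 and 54.2 CPM against 45.2 and 46.2 (0.37 ± 0.12). Rxra, the partner receptor, was at 11.1 and 13.9 CPM against 3.94 and 4.03 (1.73 ± 0.27). Of the targets, Apoe was at 70.0 and 67.6 CPM in cDC1 and at 228 and 202 in cDC2 (-1.54 ± 0.10), Arl4c at 26.1 and 26.1 against 253 and 260.1 (-3.20 ± 0.11), and Pltp is given above. Abcg1, the efflux pump, was at 32.6 and 33.5 CPM against 38.2 and 34.8 and did not pass (-0.05 ± 0.13, adjusted p = 0.806). Fabp5, a fatty acid carrier, was at 7.38 and 5.71 CPM against 88.8 and 126 (-3.93 ± 0.12), and Npc1 of lysosomal cholesterol export differed by -1.69 ± 0.16.

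Genes of general cell state differed to unequal degrees. Of 42 cell cycle genes, 16 were higher in cDC2 (2 by at least 2-fold) and 1 in cDC1. These were mostly small differences, such as Mki67 at 20.9 and 21.3 CPM against 36.4 and 35.6 (-0.67 ± 0.14). The larger 2 were cyclins of G1: Ccnd1 at 187 and 196 CPM against 837 and 799 (-1.997 ± 0.10), and Ccnd2 at 3.40 and 4.26 against 82.7 and 77.8 (-4.29 ± 0.14). With the IA_IE minimum applied to both classes, 8 cell cycle genes were higher in cDC2 and 4 in cDC1, and DESeq2 called 6 and 0. Of 24 genes of the immediate early and stress responses, 13 were higher in cDC2 (3 by at least 2-fold), among them Atf3 at 318 and 327 CPM against 1043 and 798 (-1.40 ± 0.10), and 6 in cDC1 (1). Glycolysis genes were 9 of 19 higher in cDC1 and 7 in cDC2, with Hk3 at 41.2 and 49.9 CPM against 3.94 and 11.004 (2.76 ± 0.19) and the glucose transporter gene Slc2a3 at 1.83 and 1.5 against 59.4 and 44.0 (-4.84 ± 0.19). Ribosomal protein genes reached 2-fold in 0 of 81, with 23 higher in cDC1 and 1 in cDC2.

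**Figure D3:**
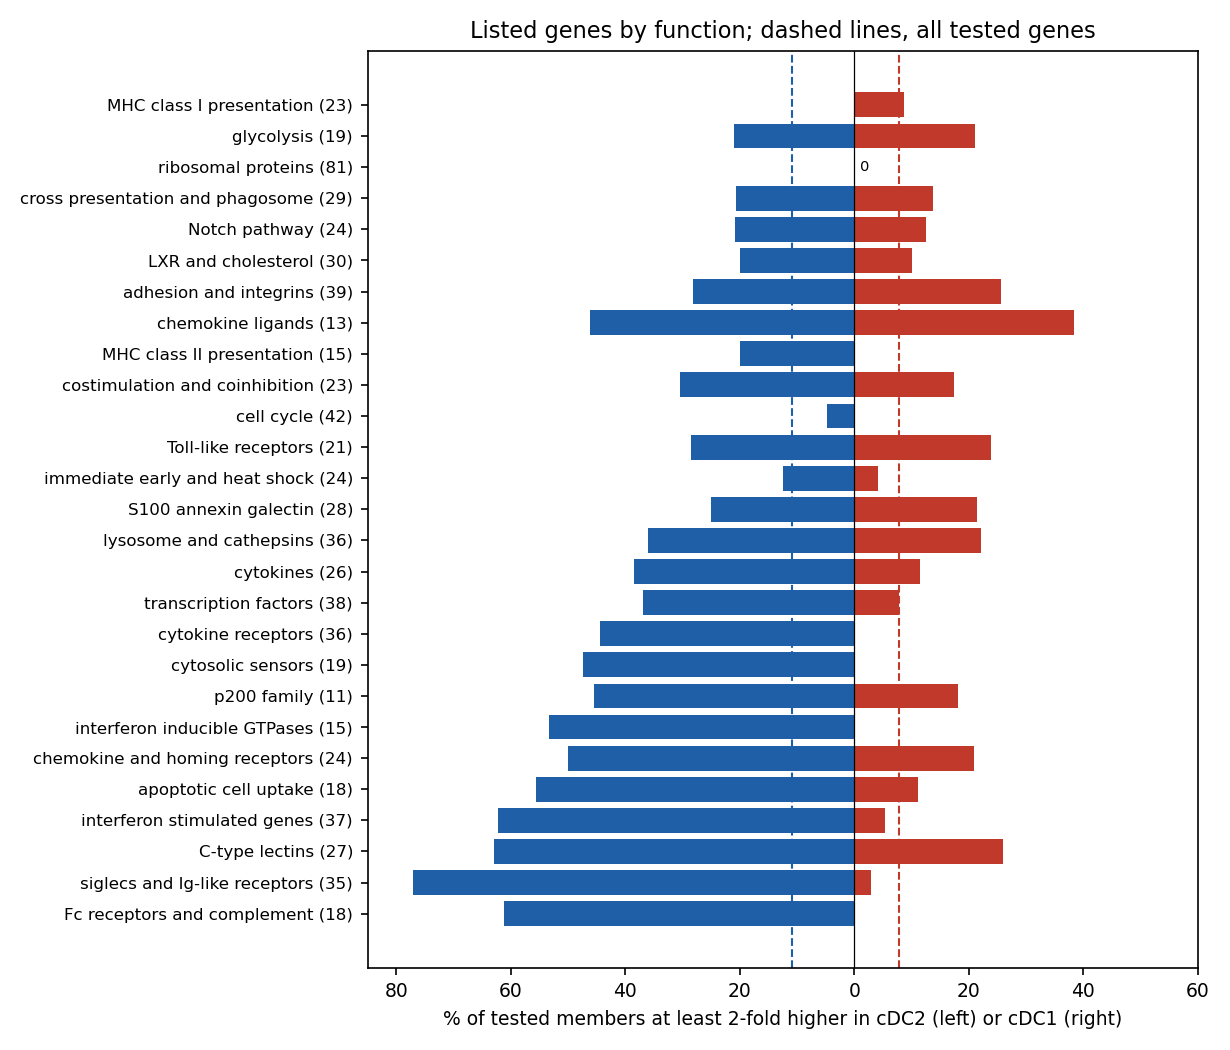
Share of the tested members of each gene list at least 2-fold higher in cDC2 (blue, left) or cDC1 (red, right) at an adjusted p under 0.05, with the number tested in brackets and lists ordered by median log2 difference; dashed lines mark 10.9% and 7.89% of all tested genes. Fc and Ig-like receptor, lectin and interferon lists extend far left of the line, and ribosomal proteins show no bar.

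Marker RNA of other cells also differed between the classes. Neutrophil markers (9 genes) summed to 153 and 139 CPM in cDC1 and to 3189.95 and 2188 CPM in cDC2. In the cDC2 class 4 cells, 2 per library and each with at least 20 such UMIs, held 98.3% of the 16434 UMIs of 5 neutrophil genes (Camp, Ngp, Ltf, S100a8 and S100a9). S100a8 and S100a9 were called higher in cDC2 (-4.08 ± 0.11 and -3.97 ± 0.11), and without the cells rich in such RNA they were not (-0.20 and -0.01, adjusted p = 0.444 and 0.980 by edgeR). Both are among the 5 genes that chose those cells, so this loss is partly fixed by the choice. Nonclassical monocyte markers (9 genes) summed to 804 and 846 CPM in cDC1 and to 1773 and 1553 in cDC2, and red pulp macrophage markers (10 genes) to 36.7 and 45.6 against 181 and 317. Mature dendritic cell markers (14 genes) summed to 517 and 494 CPM against 1505 and 1504, with 6 of 11 tested higher in cDC2 and 1 in cDC1. Ccr7, limited by the rule, was at 7.63 and 6.63 CPM against 39.999 and 27.1. Erythroid markers (7 genes) summed to 408 and 495 CPM in cDC1 and to 64.5 and 269.97 in cDC2. T cell markers summed to 15.6 and 17.9 CPM against 39.4 and 31.5, with 3 of 7 tested at least 2-fold higher in cDC2. Sums of B cell and NK cell markers differed less (282 and 263 against 289.996 and 261, and 103 and 108 against 108 and 103). The rule left out cells with a UMI of Cd3e, Cd79a or Ncr1, which keeps these lymphoid sums low in both classes. Of 6 platelet markers, 5 were at 0 in cDC2. The part of such cells in the other differences was not tested.

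Surface protein was compared next. Of 169 antibodies tested, 78 (46.2%) passed edgeR's quasi-likelihood test, 35 (20.7%) higher on cDC1 and 43 (25.4%) higher on cDC2. At least 2-fold differences were called for 16 (9.47%) on the cDC1 side and 18 (10.7%) on the cDC2 side. Isotype controls, antibodies without a target, set the background: their highest level was 1.77 UMIs per 10000 antibody UMIs on cDC1 and 2.82 on cDC2. This leaves out IgG1_Rat_l, which had 51.1% of its UMIs over all kept cells in a single cell. In cDC2 its highest cell held 1.19% of its UMIs, and its level there was 3.29. The IgG1_Rat_k control was itself called higher on cDC2 (-0.54, adjusted p = 0.0233), 1 of 9 controls. Above that level in the higher class, 31 of 87 antibodies were higher on cDC1 (35.6%) and 21 on cDC2 (24.1%). This filter looks only at the class where an antibody is higher and has a lower bar on cDC1. The balance of 31 and 21 is therefore a description of what passed it.

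On cDC1 the largest difference was CD103, an integrin that binds E-cadherin, at 19.9 and 20.2 UMIs per 10000 against 1.83 and 1.996 on cDC2 (3.50 ± 0.19), where it lay under the highest isotype control. CD8a was at 721 and 812 against 80.2 and 124 (3.06 ± 0.13), and CD272, the protein of Btla, at 108 and 96.6 against 15.3 and 19.6 (2.67 ± 0.18). CD24 was at 597 and 622 against 148 and 185 (1.997 ± 0.10), and CD207_mh (langerin) at 8.54 and 6.52 against 2.01 and 1.86 (2.07 ± 0.17), its cDC2 values at the level of the isotype controls. CD49f, CD201, CD371, CD38 and CD200 followed, with log2 differences from 2.15 to 1.41. The adhesion molecules CD54 (ICAM-1) and CD11a (of LFA-1), which bind each other across cell contacts, were both higher on cDC1, CD54 at 1947 and 2181 against 1227 and 1373 (0.78 ± 0.04) and CD11a at 830.3 and 770.1 against 354 and 373 (1.25 ± 0.08). The Clec9a protein CD370 was low, at 4.06 and 4.10 against 1.69 and 1.91 (1.30 ± 0.15).

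On cDC2 CD11b_mh was the most abundant of the leading antibodies, at 870.2 and 776 UMIs per 10000 against 56.2 and 45.0 on cDC1 (-3.91 ± 0.09). CD4, which marks most splenic cDC2 of mice, was at 422 and 349 against 21.5 and 21.97 (-4.03 ± 0.14). CD301a, a galactose-binding lectin, was at 62.4 and 65.2 against 2.44 and 2.46 (-4.59 ± 0.18), and its relative CD301b at 7.08 and 9.58 against 0.799 and 0.877 (-3.18 ± 0.16). ESAM was at 60.1 and 45.3 against 4.41 and 4.24 (-3.48 ± 0.20), and CD274 (PD-L1) at 167 and 159 against 14.8 and 20.9 (-3.10 ± 0.20). CD22, CD115, CD309_A0554 and CD326 followed, with log2 differences from -2.59 to -1.36. CD309_A0554 was at only 2.57 and 3.11 on cDC2, below the level of IgG1_Rat_l on average. The largest adjusted p of the 20 leading antibodies was 0.00377. Further down, CD5, F4_80 and CD80 were higher on cDC2 (-1.05 ± 0.11, -1.01 ± 0.16 and -0.62 ± 0.13). With isotype UMIs as the library size none of these 3 was called (adjusted p = 0.0502 for CD5, 0.0991 for F4_80 and 0.348 for CD80 by edgeR). Without IgG1_Rat_l in that library size CD5 and F4_80 kept their call, and CD80 did not (adjusted p = 0.0961). CD80 also lost its call with RLE (adjusted p = 0.0617) and per cell (-0.20, adjusted p = 0.478).

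**Figure D4:**
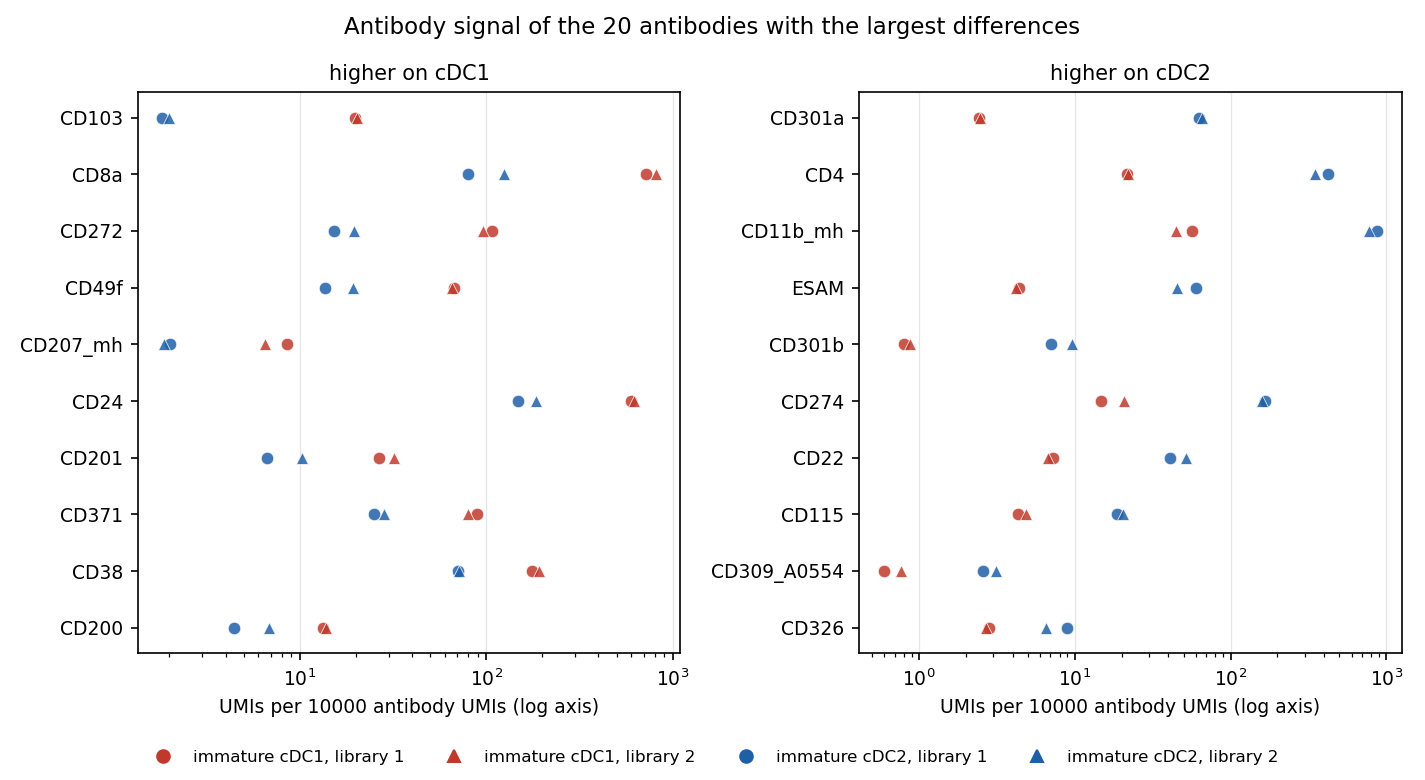
Antibody UMIs per 10000 antibody UMIs (log axis) of the 10 antibodies with the largest log2 difference in each direction, among those called and above the isotype controls. Circles are library 1, triangles library 2, red cDC1 and blue cDC2. Classes do not overlap in any row, which the choice of the largest differences makes nearly certain. CD11b_mh on cDC2 lies at 870.2 and 776 and CD103 on cDC2 at 1.83 and 1.996.

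The split of the antibody calls by direction depended on the scale. With UMIs per cell in place of per total antibody UMIs, 82 were called and 75.6% of them were higher on cDC1, against 44.9% per total, beside a median of 1099 and 970 antibody UMIs per cell on cDC1 and 725.5 and 713 on cDC2. The median log2 difference of all antibodies moved from -0.09 to 0.33. All 20 leading antibodies kept their direction and their call on that scale.

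Surface protein and RNA of the same gene could be compared in 64 pairs whose antibody was above the isotype level in its higher class. Both were called in 38, and 35 of those had the same direction. The antibody alone was called in 7, the RNA alone in 14 and neither in 5. In 3 pairs the directions were opposite, with more protein on cDC1 and more RNA in cDC2, each as a share of its total. RNA per cell was not compared, and cDC1 held more RNA UMIs per cell (median 9222 and 8172 against 4066 and 4064.5). The 3 pairs are therefore opposite on the scale of shares only. CD11c was at 185 and 166 UMIs per 10000 on cDC1 and at 139 and 127 on cDC2 (0.52 ± 0.11), while its gene Itgax was at 129 and 128 CPM against 249 and 241 (-0.83 ± 0.10). CD86 was at 108 and 105 against 62.1 and 73.5 (0.77 ± 0.14), with Cd86 RNA at 219 and 221 CPM against 322 and 285. CD31 was at 73.6 and 75.9 against 39.0 and 49.1 (0.89 ± 0.15), with Pecam1 at 19.4 and 20.5 CPM against 34.2 and 43.3 (-0.85 ± 0.13). CD11c was also a gate of the sort, and its antibody call was lost without the library as a block (adjusted p = 0.0713). With isotype UMIs as the library size none of the 3 antibodies was called (adjusted p = 0.556 for CD11c, 0.279 for CD86 and 0.165 for CD31 by edgeR). That library size includes IgG1_Rat_l, and without this control all 3 kept their call. For CD301a the RNA of Clec10a was at 1.03 and 1.51 CPM against 11.8 and 6.24 (-2.73 ± 0.34), and for CD301b Mgl2 was at 0.165 and 0.270 against 3.64 and 6.97 (-4.48 ± 0.50). Cd4 RNA, at 1.44 and 2.22 CPM against 74.8 and 71.5 (-5.21 ± 0.16), had the direction of its protein.

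**Figure D5:**
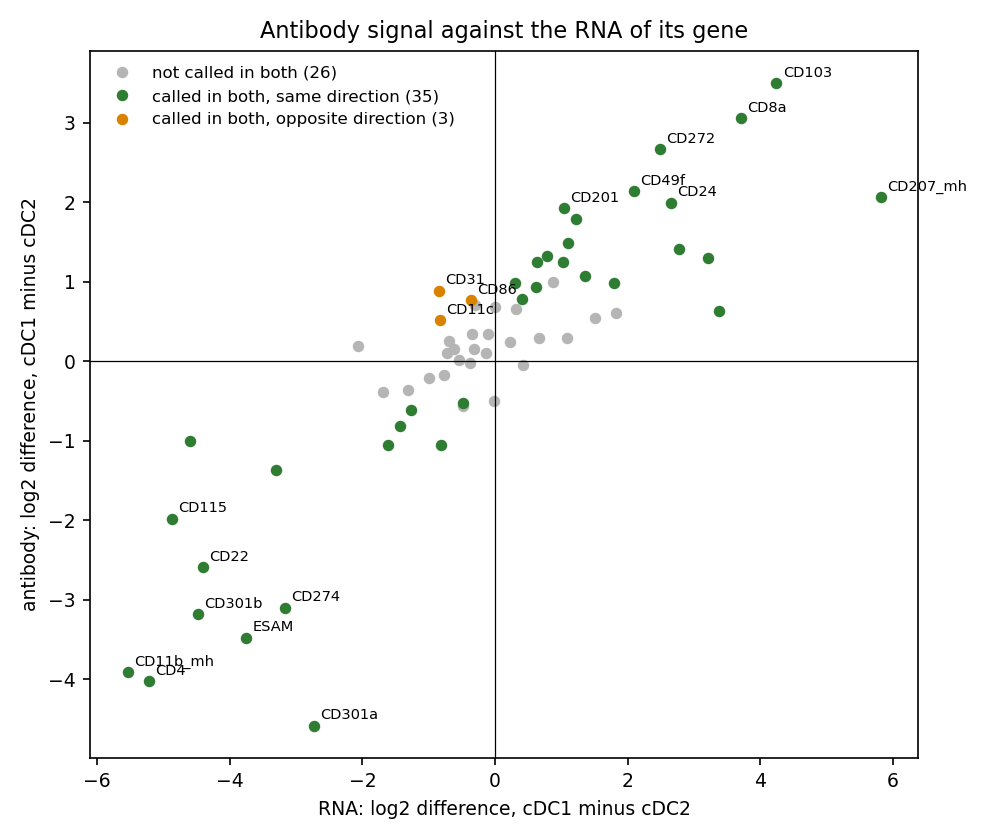
Log2 difference (cDC1 minus cDC2) of the antibody (y axis) against that of the RNA of its gene (x axis) for 64 antibodies above the isotype level; green, 35 pairs called in both with the same direction, orange, 3 with opposite directions, grey, 26 not called in both. CD11c, CD86 and CD31 lie upper left of the origin; CD103 and CD8a are at the top right and CD11b_mh and CD4 at the bottom left.

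The share of cells in which a gene was counted was also compared. It depends on how many UMIs are sampled per cell, so a cell at 0 may still hold the RNA. Thinned to 2000 UMIs per cell, Irf8 was counted in 96.1% and 97.5% of cDC1 and in 17.0% and 20.1% of cDC2, against 15.2% and 20% of T cells. Clec9a was counted in 44.4% and 47.8% of cDC1, 4.86% and 6.01% of cDC2, and 2.46% and 3.89% of T cells. By contrast Wdfy4 was counted in 67.5% and 72.0% of cDC1, 41.7% and 38.5% of cDC2, and 3.69% and 7.22% of T cells, and Batf3 in 40.7% and 42.2%, 31.0% and 29.5%, and 2.05% and 3.89%. S100a4 was counted in 82.9% and 82.5% of cDC2, 1.41% and 1.61% of cDC1, and 15.98% and 12.8% of T cells. Cybb was counted in 37.4% and 42.4% of cDC2 and in 0.363% and 0.562% of cDC1. Thinning left out 140 and 238 cDC1, 30 and 20 cDC2 and 29 and 26 T cells with fewer UMIs. Without thinning, the shares in cDC1, cDC2 and T cells were 99.3% and 99.5%, 29.3% and 32.9%, and 24.5% and 26.7% for Irf8, and 86.7% and 87.6%, 10% and 12.97%, and 5.49% and 5.83% for Clec9a. For Wdfy4 they were 96.4% and 97.0%, 65.3% and 61.6%, and 7.69% and 11.7%, for Batf3 84.5% and 83.7%, 52.3% and 51.7%, and 2.56% and 4.37%, and for S100a4 4.98% and 5.35%, 93.4% and 92.3%, and 20.1% and 15.5%. For Cybb they were 1.59% and 1.802% in cDC1 and 61.4% and 61.6% in cDC2.

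Surface proteins varied from cell to cell. On cDC2, CD4 had a 10th percentile of 1 UMI, a median of 26 and a 90th percentile of 73.1 per cell in library 1, and 1, 21 and 57.5 in library 2. CD11b_mh was present throughout, at 20, 55 and 130.2 UMIs and at 14.5, 48 and 126. ESAM ran from 0 through 4 to 11 and from 0 through 3 to 9. CD301a had a median of 0 and a 90th percentile of 10 and 11, so its high class mean came from a minority of cells. On cDC1, CD103 had a median of 1 and a 90th percentile of 6 UMIs in both libraries, while CD8a ran from 19 through 74 to 163 and from 28 through 79 to 154.

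Of the 154 genes named from the lists and the ranking with a test, 149 were called, and the largest adjusted p among them was 0.00871 (Nr1h2, edgeR's quasi-likelihood test). Most were named for being called, so that count is a description. Each class was 1 sum per library, so differences between mice, sorts or stainings cannot be told apart from those between libraries.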

How the data were processed

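RNA and antibody counts were deposited by the authors as 1 aggregated matrix of UMI counts per cell, not normalised. Per the file headers it was written by Cell Ranger 3.1.0. The submitters' processing notes name Cell Ranger, STAR, Seurat 3.1.4 and the mm10 build. The members and gene lists were chosen with earlier results of these data known.

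UMIs were summed per class and library, since cells are not replicates. RNA and antibodies were each fitted over all features with edgeR 4.0.16 (TMM, filterByExpr for RNA, at least 100 UMIs for antibodies, quasi-likelihood test, Benjamini-Hochberg adjustment, class plus library). The library was a block because both classes came from the same library. It leaves 1 residual degree of freedom. Genes of the choosing rule were in the fit but not in the counts of tested features. H2-Aa, H2-Ab1 and H2-Eb1, which encode the target of the IA_IE antibody, stayed in those counts. CPM values divide by the RNA UMIs of the class in that library. RNA genes were named as the 12 largest log2 differences per direction (adjusted p under 0.05, same direction in both libraries, mean of at least 20 CPM), then up to 4 leading members of each list (at least 5 CPM in a class) and members by which a list is described. Antibodies were named as the 10 largest per direction above the isotype controls. Others were picked after their values were seen: Clec4b2, Cd207, Tlr4, the pairs of RNA and antibody, and CD54, CD11a, CD5, CD80, CD370 and F4_80.

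Doublets marked by Scrublet (scanpy 1.11.5) stayed in and were left out in an alternative. Other alternatives were RLE scaling, DESeq2 1.42.0, no block, other filters, depths and antibody limits, isotype or per-cell scaling of antibodies, and leaving out cycling, monocyte or macrophage RNA, or single libraries. Leaving out cells with neutrophil RNA, cDC2 high in cDC1 markers, or the IgG1_Rat_l control was chosen after seeing the data. On simulated RNA sums of 13366 genes with 200 changed, 68% of 2-fold and 84% of 4-fold changes were recovered and 7 unchanged genes were called. Floors cover counting error only, and each ± is the SE implied by the edgeR test.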

Additional observations from a re-analysis of the deposited data

How the results depend on the processing

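RNA calls numbered 5508 in all. DESeq2 gave 3340, with 1518 RNA features higher in cDC1 and 1822 higher in cDC2. The other RNA settings kept each total within 1.5 times, from 3823 with a mean of at least 10 CPM to 7161 without the IA_IE minimum. This holds for counts and not for shares, as the number of genes fitted differed. It was 13366 in the main fit, 7145 for the 3823 calls and 13625 for the 7161. Stricter antibody limits gave 4206 calls of 12334 genes, and no filter 5368 of 23687. With no filter 57.9% of calls were higher in cDC1, against 50.3%, and the median log2 difference of all genes went from 0.04 to 0.41. Without the library as a block, 5344 RNA and 56 antibody calls were made. Inside a single library, 5495 to 5502 of the RNA calls kept their direction (2766 to 2768 of those higher in cDC1 and 2729 to 2734 of those higher in cDC2), as did all 78 antibody calls (35 and 43). Antibody calls numbered 48 with RLE and 27 with isotype UMIs as the library size (13 on cDC1, 14 on cDC2). Antibodies higher on cDC2 numbered 23 with RLE, 25 with DESeq2, 26 above the isotype level, 24 above it without IgG1_Rat_l, 20 with isotype UMIs without that control and 20 per cell, where 62 were higher on cDC1. The share of antibody calls higher on cDC1 was 44.9%, 59.0% with DESeq2, 71.8% with isotype UMIs without IgG1_Rat_l and 75.6% per cell.

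Of 154 named genes, 5 turned direction somewhere. Notch2 was at 0.00084 with no filter and 0.0219 in deeper cells. Abcg1 was at 0.0426 with no filter, 0.0304 without monocyte or macrophage RNA, and from -0.118 to 0.0312 inside a single library. Without monocyte or macrophage RNA, S100a8 was at 0.0194 and S100a9 at 0.0625. Tlr4 was at 0.0689 with no filter, 0.166 with stricter antibody limits, 0.762 without monocyte or macrophage RNA, and from -0.0828 to 0.0395 inside a single library. Notch2, Abcg1 and Tlr4 were not called in any setting run. Nr1h2 lost its call with DESeq2 (0.36, adjusted p = 0.149) and with stricter antibody limits (0.34, adjusted p = 0.0823). Unc93b1 (0.24) and Cd74 (0.17) were called with no filter, and Unc93b1 (0.20) without the IA_IE minimum. With isotype UMIs as the library size CD11c, CD86, CD31, CD54, CD5, CD80, CD370 and F4_80 were no longer called. With IgG1_Rat_l left out of that library size, CD80 alone among them was not called. CD80 was also not called with RLE or per cell. The cause was not tested. The 6026295 RNA UMIs of cDC2 against 115188792 of cDC1 limit what can be read at low levels in cDC2.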
